A study of Rattus norvegicus with 6 samples.

Results

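Myo19 and Myo9a are the hosts of 22 of the 11061 circular RNAs (circRNAs) in a table of rat spinal cord: 4 junctions lie in Myo19 and 18 in Myo9a. They were taken by host symbol, leaving out circRNAs that the table classes as antisense, of which neither gene had any (0 each). The genes were selected on their back-splice read counts in the same injured and sham libraries, so the comparison of the groups is given for both as a description, with no test. The injured group (SCI) held 3 spinal cord libraries of Wistar rats aged 8 weeks whose cord had been transected. The control group (sham) held 3 libraries of Wistar rats of the same age that had laminectomy alone, in which the bone over the cord is opened. The design text calls the transection complete, the series title can be read as incomplete, and no source here gives the time between surgery and collection. Since the labels leave unsaid whether separate rats stand behind the libraries of a group, spreads and p-values measure differences between libraries, which may be technical.

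A circRNA is a closed loop that forms when a downstream splice donor is joined to an upstream splice acceptor, and reads across that back-splice junction measure it. Unconventional myosins are actin-based motors that do not build the thick filaments of muscle. Myo19 encodes a motor that sits on the outer mitochondrial membrane and moves or anchors mitochondria along actin. Myo9a encodes a class IX myosin whose tail carries a GTPase-activating domain, and in mice its loss has been tied to the ependyma that lines the ventricles.

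The libraries were shallow. Back-splice reads totalled 21255, 20847 and 19603 in SCI and 11631, 9805 and 12722 in sham, so 1 read was worth 47.0 to 51.0 RPM (reads per 1000000 back-splice reads of the library) in SCI, against 78.6 to 102 in sham. A count of 0 allows up to 3 reads, a share of 141 to 153 RPM in an SCI library and of 236 to 306 RPM in a sham library. These limits and all intervals below cover counting error only. Among hosts that mark cell types of the cord, 7 of 8 neuronal, 5 of 6 oligodendrocyte and 4 of 5 astrocyte markers had reads. In the same order, their reads in SCI and sham were 29 and 14, 120 and 55, and 34 and 14. Of 6 microglia and macrophage markers 0 had reads, and of 7 skeletal muscle markers the titin gene Ttn alone did, with 7 reads in SCI, against 0 in sham (0 to 0.0235% of reads per SCI library). The muscle myosin heavy chain genes Myh1, Myh2 and Myh4 were at 0 in all 6 libraries. Of 4 endothelial markers Flt1 alone had reads, 12 in SCI and 19 in sham. Of 3 Schwann cell markers Prx alone did, with 0 in SCI and 2 in sham. Whether these marker hosts have a part in the values below was not tested.

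Myo19 back-splice reads were counted in all 3 SCI libraries and in 0 of the 3 sham libraries. The host sum was 20, 16 and 29 reads in SCI libraries 1 to 3 and 0, 0 and 0 in sham. Relative to library totals that was 941, 767 and 1479 RPM in SCI, a mean of 1063 ± 371 (SD, n = 3). This was 1 of 263 hosts (5.92% of all hosts with reads) in which every SCI library lay above every sham library, and 1 of 1542 (34.7%) with 0 sham reads. Every SCI library stood above the 236 to 306 RPM that a count of 0 allows in a sham library. Over the groups, 65 of 61705 reads in SCI stood against 0 of 34158 in sham, at least 11.99-fold higher with 3 reads over the sham group as the floor. The exact 95% interval of the ratio, which also takes in the counting error of the SCI reads, had a lower limit of 9.48. At the SCI rate the sham libraries together would have held 36.0 Myo19 reads. Scaled to the smallest library total of 9805, the 3 SCI libraries would have held 9.23, 7.53 and 14.5 reads. In bulk cord, fewer cells that make a circRNA and less of it per cell cannot be told apart.

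**Figure D1:**
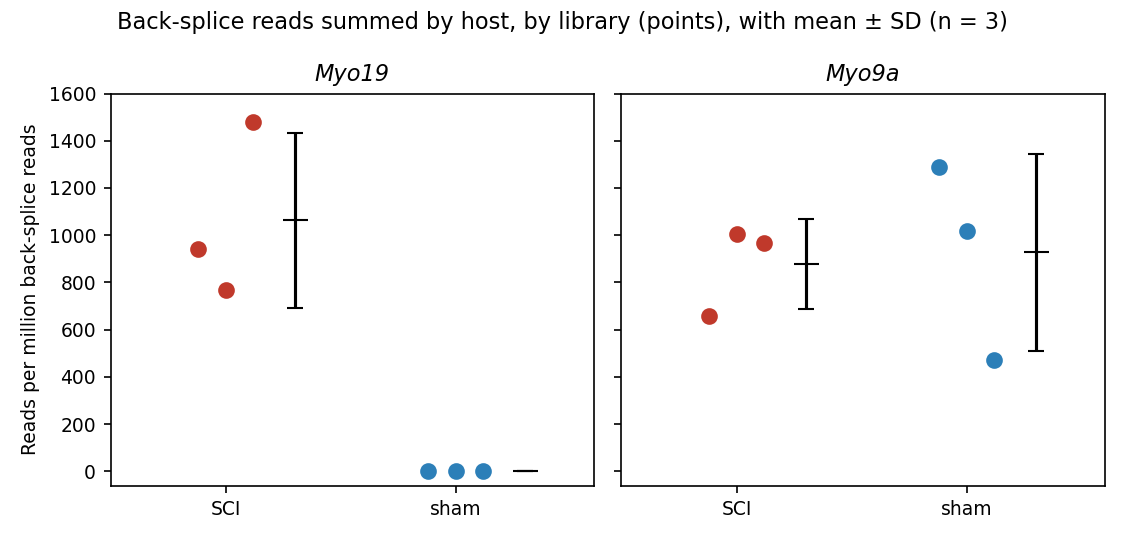
Back-splice reads of Myo19 (left) and Myo9a (right) in RPM, 1 point per library, with the mean and SD (n = 3) beside the points of each group, SCI left of sham. The SCI libraries lie at 767 to 1479 for Myo19 with sham at 0, and the groups overlap for Myo9a.

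The bound depends on how much sham sequence stands behind the 0. With a floor of 3 reads in each sham library it was at least 3.998-fold higher, and without sham replicate 1 or sham replicate 3 it was 7.91-fold and 7.53-fold, since fewer sham reads were then counted. The table lists a circRNA only where some library has 2 or more of its reads, so single reads of other Myo19 junctions would not be in it.

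The 4 Myo19 junctions shared a single start and differed in their end. All are exonic, lie on the plus strand of chromosome 10 and start at 72109950, which on this strand is the acceptor side (coordinates as the table gives them, counted from 1; their genome build is not stated in the sources used). Their ends were 72116821, 72118557, 72119215 and 72119405. The predicted lengths were 535, 708, 805 and 882 nucleotides, each longer than the one before by 173, 97 and 77 nucleotides, while the genomic spans ran from 6.87 to 9.46 kb. All 4 are assigned to the transcript NM_001163736. The shortest has a circBase identifier and the other 3 have none. Of the 268 hosts with 4 junctions in the table, 14 (5.22%) had all 4 on a shared start or a shared end.

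The junction ending at 72119215 carried most of the Myo19 reads, with 14, 9 and 13 in the SCI libraries and 0 in each sham library. It was the most-read Myo19 junction in each SCI library, at 70.0%, 56.3% and 44.8% of Myo19 reads, and 55.4% over the 3 (36 of 65 reads, 95% Wilson interval 43.3 to 66.8%). The longest, ending at 72119405, had 6, 2 and 7 reads in SCI, against 0 in sham. The shortest, ending at 72116821, had 0, 5 and 7 reads in SCI, against 0 in sham. The junction ending at 72118557 had 2 reads, both in SCI replicate 3. SCI replicate 1 thus held 2 of the 4 junctions, SCI replicate 2 held 3 and SCI replicate 3 held all 4. The absence of the shortest junction from SCI replicate 1 allows a share of up to 16.1% there (0 of 20 reads, Wilson), against 31.3% (14.2 to 55.6%) and 24.1% (12.2 to 42.1%) in the other libraries, so these intervals overlap.

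**Figure D2:**
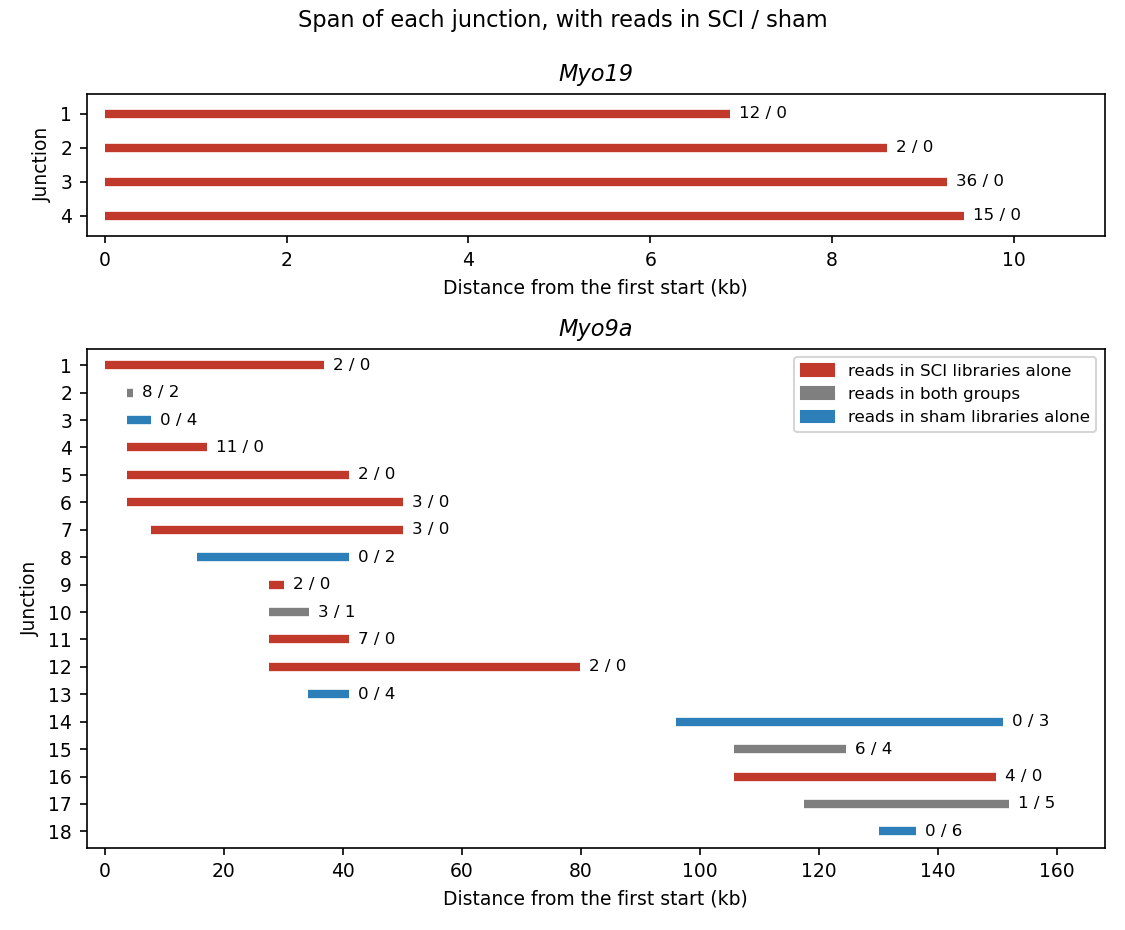
Genomic span of each Myo19 junction (above) and each Myo9a junction (below) in kb from the first start of its gene, with reads in SCI / sham beside each bar. The 4 Myo19 bars begin at 1 site and carry 65 SCI and 0 sham reads, while the 18 Myo9a bars begin at 10 sites with reads in SCI, in sham or in both.

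The SCI and sham levels of Myo9a overlapped. Its 18 junctions summed to 14, 21 and 19 reads in SCI, against 15, 10 and 6 in sham. In RPM that was 659, 1007 and 969 in SCI, a mean of 878 ± 191, and 1290, 1020 and 472 in sham, a mean of 927 ± 417 (SD, n = 3 each). The sham libraries lay both above and below all SCI libraries. The ratio of SCI to sham over the groups was 0.964 (54 and 31 reads, exact 95% interval 0.609 to 1.55). It lay above 1 when TMM or DESeq2 factors over all circRNAs replaced the totals, at 1.42 and 1.86, since those factors raised every SCI to sham ratio by 1.48 and 1.92 times. They are not the TMM factors of the fit over host sums below. Leaving TMM out of that fit moved the median log2 fold change of its 647 hosts by -0.097.

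Myo9a reads were spread thinly over many junctions. The junctions covered 152 kb of the plus strand of chromosome 8, used 10 starts and 14 ends, and all are assigned to the transcript NM_134335. Of the 18, 17 are exonic and 1 overlaps the gene in sense, with a predicted length of 36891 nucleotides equal to its span. The exonic ones have predicted lengths of 225 to 4037 nucleotides, with a median of 1004 against 646 for all exonic circRNAs of the table. Those with a circBase identifier number 12, with 56 of the 85 reads. Of the 196 hosts with 50 to 100 reads in all, 1 (Vps13a, which encodes a lipid transfer protein, with 20 junctions) had more junctions, and the median was 5. The most-read junction took 12.9% of Myo9a reads, against a median of 58.7% over those 196 hosts. Myo19, in the same range with 65 reads, had 4 junctions and a top share of 55.4%. This range of reads was set after the members' values were seen.

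Of the 18 Myo9a junctions, 11 had reads in 1 library, 5 in 2, 1 in 3 and 1 in 4. Of all circRNAs, 58.1% had reads in 1 library, so the Myo9a share was near the background. The SCI libraries held 6, 7 and 5 of the Myo9a junctions and the sham libraries 5, 4 and 1. Reads were in SCI alone for 9 junctions (36 reads), in sham alone for 5 (19 reads) and in both for 4 (30 reads). Of all circRNAs in the table, 49.2% had reads in SCI alone and 22% in sham alone, which is near these shares. The most widely seen junction (64475504 to 64494241, 551 nucleotides, circBase identifier) had 3, 0 and 3 reads in SCI, against 2, 2 and 0 in sham. The most-read one (64373540 to 64386882, 1226 nucleotides) had 0, 5 and 6 reads in SCI, against 0 in each sham library. One whose span equals its predicted length of 911 nucleotides (64373540 to 64374450) had 0, 2 and 6 reads in SCI, against 0, 2 and 0 in sham. At the other end, the junction from 64499813 to 64506003 had all its 6 reads in sham replicate 3, where it was the only Myo9a junction counted.

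**Figure D3:**
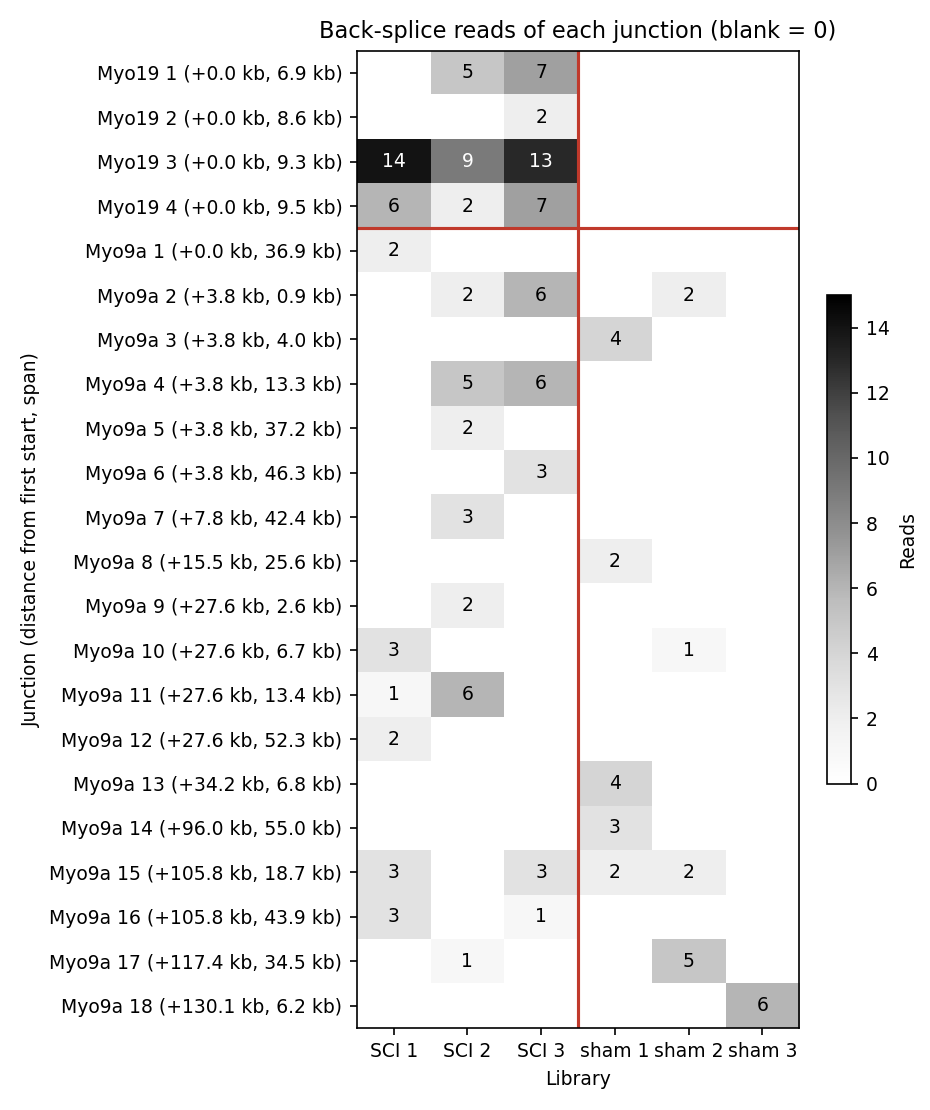
Reads of each Myo19 junction (top 4 rows) and Myo9a junction (lower 18 rows) in each library, SCI left and sham right, darker for more reads and blank for 0. The Myo19 rows are filled on the SCI side alone, up to 14 reads, and no Myo9a cell holds more than 6.

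Several Myo9a junctions shared a splice site. The start at 64373540 served 5 junctions with predicted lengths of 911 to 1915 nucleotides, which together had 0, 9 and 15 reads in SCI, against 4, 2 and 0 in sham. The start at 64397300 served 4 junctions (225 to 1223 nucleotides) with 6, 8 and 0 reads in SCI, against 0, 1 and 0 in sham. The start at 64475504 served 2 junctions with 6, 0 and 4 reads in SCI, against 2, 2 and 0 in sham. On the donor side, the end at 64410739 closed 4 junctions with 1, 8 and 0 reads in SCI, against 6, 0 and 0 in sham. The end at 64419870 closed 2 junctions with 0, 3 and 3 reads in SCI, against 0 in each sham library, and was the shared Myo9a site with no sham reads. At each of these 5 sites the range of reads in SCI overlapped that in sham, and a library at 0 was found in both groups.

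The remaining Myo9a junctions had 7 reads or fewer, most of them in a single library. From the start at 64373540, the junction ending at 64377578 (1006 nucleotides) had 4 reads, all in sham replicate 1. The one ending at 64410739 (1793 nucleotides) had 2 reads, in SCI replicate 2, and the one ending at 64419870 (1915 nucleotides) had 3, in SCI replicate 3. The other junction closed at 64419870 starts at 64377484 (1004 nucleotides) and had 3 reads, in SCI replicate 2. Each of these was thus counted in 1 library alone. From the start at 64397300, the junction ending at 64410739 (567 nucleotides) had 1, 6 and 0 reads in SCI and none in sham. The one ending at 64403984 (315 nucleotides) had 3 reads in SCI replicate 1 and 1 in sham replicate 2. Those ending at 64399917 (225 nucleotides) and 64449637 (1223 nucleotides) had 2 reads each, in SCI replicate 2 for the shorter and SCI replicate 1 for the longer. All 4 of these junctions have a circBase identifier. The other junctions closed at 64410739 were seen in sham replicate 1 alone, with 2 reads from 64385180 (724 nucleotides) and 4 from 64403895 (342 nucleotides). The sense overlapping circRNA (64369700 to 64406590) had 2 reads, in SCI replicate 1. Further downstream, the junction from 64475504 to 64519445 (1731 nucleotides) had 3, 0 and 1 reads in SCI and none in sham. The one from 64487134 to 64521663 (1692 nucleotides) had 1 read in SCI replicate 2 and 5 in sham replicate 2. The longest exonic one (64465674 to 64520690, 4037 nucleotides) had 3 reads, in sham replicate 1. Single libraries thus set the values of most of these junctions.

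A gap of 61.8 kb without a start, between 64403895 and 64465674, parted the Myo9a junctions into 13 upstream and 5 downstream. The upstream ones had 8, 20 and 15 reads in SCI, against 10, 3 and 0 in sham, which is 376, 959 and 765 RPM against 860, 306 and 0. The groups overlapped, and the ratio of SCI to sham was 1.83 (exact 95% interval 0.966 to 3.71), 5.23 without sham replicate 1 and 1.15 without sham replicate 3. The downstream ones had 6, 1 and 4 reads in SCI, against 5, 7 and 6 in sham, which is 282, 48.0 and 204 RPM against 430, 714 and 472. All 3 SCI libraries lay below all 3 sham libraries, as for 1.53% of all hosts with reads and 5.72% of the hosts with enough reads to be tested, with a ratio of 0.338 (0.144 to 0.756). Most of the downstream sham reads came from a different junction in each library: 3 of 5 in sham replicate 1, 5 of 7 in sham replicate 2 and 6 of 6 in sham replicate 3. This split was made after the values were seen.

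Among all 4443 hosts, 1542 (34.7%) had 0 reads in sham, and Myo19 had the most SCI reads of these. The next were RT1-N2, a class I histocompatibility gene, with 6, 5 and 20 reads in SCI, against 0 in sham, and Gas2, an actin and microtubule crosslinker gene, with 12, 12 and 3 against 0. In the other direction, 683 hosts had 0 reads in SCI, and the most sham reads among them were 22, of the nuclear pore gene Nup205, 18 of them in sham replicate 3. Myo19 was selected on these counts, and a cut of 50 SCI reads falls between its 65 and the 31 of RT1-N2. Of the 229 hosts with 50 or more SCI reads, Myo19 alone had 0 in sham. The nearest by ratio was Hibadh, an enzyme gene of valine breakdown, with 21, 20 and 16 reads in SCI, against 0, 2 and 4 in sham, a ratio of 5.26. Part of that host sum, the Myo19 junction ending at 72119215, had the most SCI reads (36) of the 5018 circRNAs with a host and 0 sham reads, and the next had 26.

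**Figure D4:**
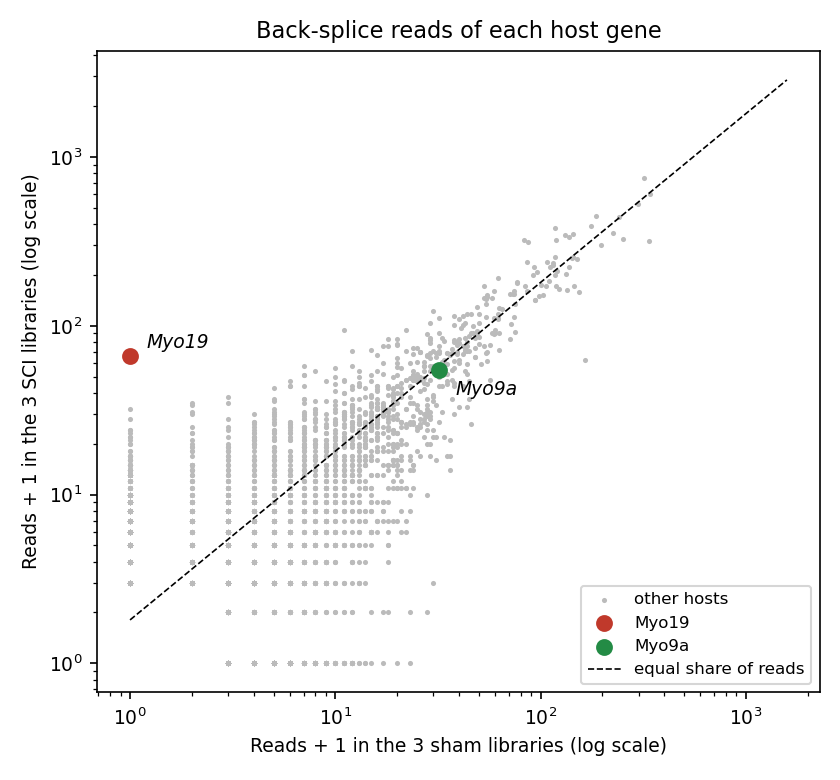
Reads of each host gene in the 3 SCI libraries against the 3 sham libraries, each plus 1 on log scales; the dashed line marks an equal share of reads. Myo19 (65 and 0 reads) stands apart at the left edge and Myo9a (54 and 31) lies near the line.

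In the fit over all hosts, edgeR's quasi-likelihood test on host sums called 2 of 647 hosts (0.309%) at adjusted p under 0.05, 1 higher (0.155%) and 1 lower (0.155%) in SCI. No test result is given for the members, which were selected on these counts. Both passed the filter on low counts as host sums, Myo19 through its SCI reads alone. Of single junctions, 1 of the 4 Myo19 junctions and 0 of the 18 of Myo9a passed it. Over all 484 tested circRNAs, 1 was called (0.207%), and it was lower in SCI. Every SCI library lay above every sham library in RPM for 61 of the 647 hosts (9.43%). This background share counts Myo19 itself, so its place there is a description.

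The other unconventional myosins had few back-splice reads. Of 23 symbols, 12 had reads, summing to 88 in SCI and 35 in sham (ratio 1.39, exact 95% interval 0.931 to 2.12). The per-library sums overlapped, at 1224 to 1694 RPM in SCI and 472 to 1977 in sham. Only 1 of the 12 had enough reads to be tested and it was not called, which says little beside the 0.309% called over all hosts. It was Myo5a, a vesicle and organelle transport motor, with 18, 14 and 12 reads in SCI, against 6, 3 and 0 in sham. Myo5a alone gave 44 of the 88 SCI reads and 9 of the 35 sham reads. In RPM all its SCI libraries lay above all its sham libraries, as for 61 of the 647 tested hosts (9.43%). The log2 fold change of Myo5a was 1.40 (SE 0.88, adjusted p = 0.903 by edgeR). Myo18a, a myosin linked to the Golgi, had 2, 7 and 4 reads in SCI, against 2, 0 and 3 in sham, with overlap. Myo16 had 3, 2 and 0 SCI reads and 2, 2 and 0 sham reads. Myo1d, a membrane-linked class I myosin, had 2, 2 and 0 SCI reads and 2, 1 and 0 sham reads. Both had a library at 0 in each group, so their groups overlapped as well. Myo9b, the class IX relative of Myo9a with the same kind of tail domain, had 2, 0 and 0 reads in SCI, against 2, 0 and 0 in sham. Of the 12, 8 had reads in both groups and 4 had 0 sham reads, beside 34.7% of all hosts with reads. Of 28 myosin II heavy and light chain symbols, 2 had reads. Myh10, the nonmuscle myosin IIB heavy chain gene, had 4, 7 and 8 reads in SCI, against 0, 8 and 5 in sham (log2 fold change -0.31, SE 1.04, adjusted p = 0.986 by edgeR).

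**Figure D5:**
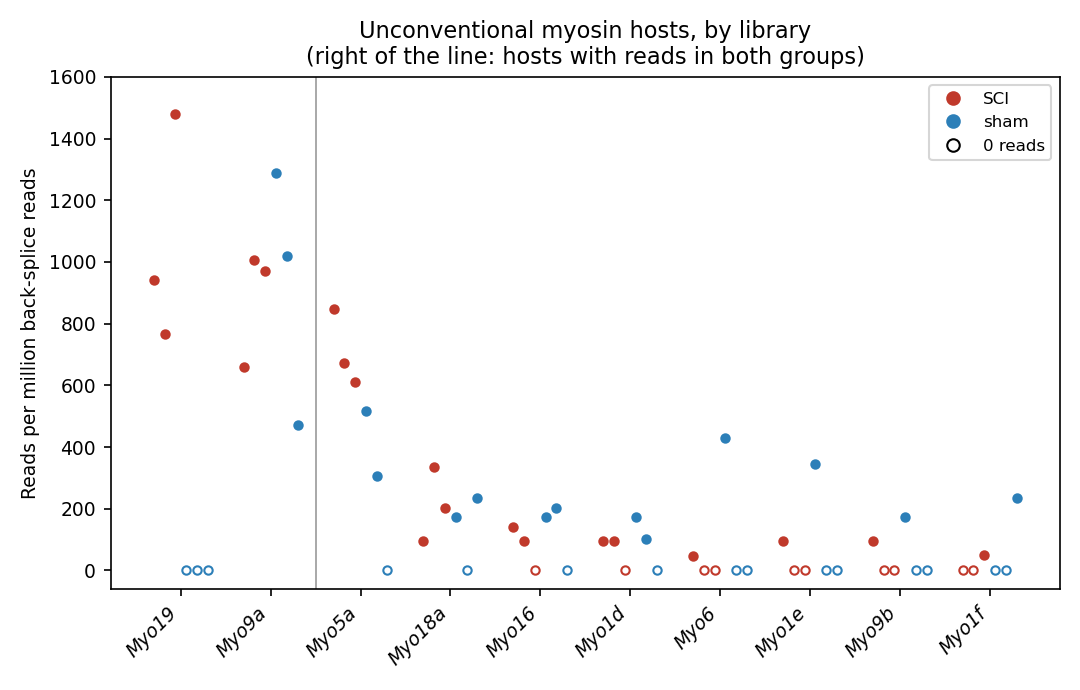
RPM of Myo19, Myo9a and the 8 other unconventional myosin hosts with reads in both groups, 1 point per library, SCI left of sham within each gene, open circles for 0 reads. Beside Myo19 and Myo9a, Myo5a had the most reads (44 in SCI and 9 in sham), and the remaining 7 hosts shown had at most 18 in all.

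Hosts that move and shape mitochondria, the setting of the Myo19 motor, had overlapping levels in SCI and sham when summed. Of 42 symbols, 21 had reads and 4 were tested, with 0 higher, 0 lower and 0 at an unadjusted p under 0.05 (edgeR), beside 0.309% called over all hosts. The median log2 fold change of the 4 was 0.25, against 0.14 over the 647 hosts. Mff, a receptor gene for the fission machinery, had 9, 9 and 11 reads in SCI, against 9, 8 and 9 in sham (log2 fold change -0.66, SE 0.60, adjusted p = 0.960 by edgeR). In RPM all its SCI libraries lay below all its sham libraries, as for 37 of the 647 tested hosts (5.72%). Opa1, a gene of inner membrane fusion, had 4, 15 and 9 SCI reads and 11, 3 and 0 sham reads. Kif5a, a neuronal kinesin gene, had 6, 7 and 8 SCI reads and 0, 0 and 10 sham reads. Mtx2, a gene of protein import at the outer membrane, had 6, 7 and 8 reads in SCI, against 5, 0 and 4 in sham. In RPM the groups overlapped for these 3, with log2 fold changes of 0.16 for Opa1, 0.33 for Kif5a and 0.44 for Mtx2 and an adjusted p of 0.986 each (edgeR). Rhot1, which encodes the mitochondrial GTPase Miro1 that binds Myo19 and kinesin adaptors, had 0, 3 and 1 reads in SCI, against 3, 2 and 0 in sham and was not tested. Summed over the 21 hosts, reads were 158 in SCI and 114 in sham, a ratio of 0.767 (exact 95% interval 0.599 to 0.985), and the per-library levels overlapped, at 2117 to 3061 RPM in SCI and 2652 to 3694 in sham. Without Kif1b, a kinesin gene for mitochondria and synaptic vesicles, with 3, 0 and 3 reads in SCI, against 6, 0 and 13 in sham, the ratio was 0.886 (152 and 95 reads, 0.681 to 1.16). Kif1b was singled out after its values were seen, as the host that moved the ratio most. Both summed ratios on library totals lay below 1. TMM or DESeq2 factors over all circRNAs, which raise every ratio by 1.48 and 1.92 times, would put both sums above 1. On library totals Opa1, Kif5a and Mtx2 lay above 1, at 1.11, 1.16 and 1.29, and Mff lay below, at 0.617. The exact 95% interval of each of these 4 hosts included 1. The sums and most of the tested hosts thus lay on opposite sides of 1 without a change of scaling. Of the 21 hosts, 6 had 0 sham reads, beside 34.7% of all hosts with reads, and these 6 had at most 6 SCI reads.

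The patterns of Myo19 and Myo9a over the 6 libraries were unlike each other, with a Pearson correlation of log2 CPM of 0.04. The hosts most like Myo19 were Ripk2 (0.978), Sv2c (0.974), Ubn2 (0.965), LOC102554677 (0.958) and Stk39 (0.957). Ripk2, an innate immune kinase gene, had 7, 9 and 7 reads in SCI, against 0 in each sham library, and Sv2c, a synaptic vesicle gene, had 11, 8 and 14 against 1, 0 and 0. The chromatin gene Ubn2 had 95, 118 and 107 reads in SCI, against 28, 26 and 28 in sham. The hosts most like Myo9a were Ambra1 (0.961), Zfp347 (0.956), Opa1 (0.952), Lrig2 (0.951) and LOC691889 (0.943), of which Ambra1, an autophagy gene, had 4, 12 and 11 reads in SCI, against 9, 9 and 0 in sham. All 5 had 0 or 1 read in sham replicate 3, the library where Myo9a was lowest. These correlations are over 6 libraries of the same depths and groups, and are descriptions.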

How the data were processed

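The 6 libraries were made from total RNA with Trizol and an Illumina TruSeq kit, per the labels' protocols. Per the file headers, the deposited table holds raw junction read counts and log2 CPM of those reads from edgeR. All 66366 deposited log2 values matched a recomputation (TMM over all circRNAs, prior count 0.25, tolerance 1e-06). The table also gives a predicted length per circRNA. Bowtie 0.12.2 and mm8, a mouse build, are listed per the submitters' processing notes. No source here names the circRNA caller or the build of the coordinates.

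Counts were summed by host symbol without the 112 antisense circRNAs. Levels are RPM, reads per 1000000 back-splice reads of the library. A group with 0 reads was set to 3 reads over the group, and intervals are Wilson or exact binomial at 95% (SciPy 1.17.1). Hosts and circRNAs were fitted with edgeR 4.0.16 in R 4.3.3 (quasi-likelihood F test, TMM, filterByExpr with a minimum count of 5 and total of 15, group only, Benjamini-Hochberg over all tested). SE was taken as the absolute log2 fold change over the square root of F. DESeq2 1.42.0 and limma-voom (limma 3.58.1) were alternatives. The fit was tested on simulated data. Members, lists and rules were chosen with earlier results of these data known. Named are all member junctions, up to 4 tested hosts per list by reads and, by Pearson correlation of log2 CPM (prior count 2), the 5 hosts most like each member. Also named are up to 6 most-read circRNAs within 500 kb of each gene. Other genes and Myo9a splits were picked with their values in view. Of the 174 list symbols, 172 are current RefSeq symbols (GRCr8), a table used for names and gene order only. Some of the genes and lists analysed are not reported here.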

Additional observations from a re-analysis of the deposited data

How the results depend on the processing

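The alternatives reuse the same counts, so the Myo19 sum had 0 sham reads in each by construction and only its bound could move. From at least 11.99-fold higher, the bound went to 17.7 with TMM sizes and 23.1 with DESeq2 size factors, both over all circRNAs. It was 6.64 for the most-read junction alone, 3.998 with 3 reads per sham library, and 7.53 to 13.7 with 1 library left out. The Myo9a ratio of 0.964 was 1.86 with DESeq2 size factors, 2.03 (a lower bound) for its most-read junction and 2.31 for the 3 junctions with 2 or more reads in at least 2 libraries, and 0.750 to 1.23 with 1 library left out. The upstream Myo9a ratio was 1.15 to 5.23 and the downstream one 0.235 to 0.464 with 1 library left out. With TMM sizes the upstream ratio was 2.70 and the downstream one 0.499. With DESeq2 size factors they were 3.52 and 0.651, so both depend on the scaling. These alternatives for the 2 parts of Myo9a were chosen after seeing the data.

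The counts behind the background were unstable. Called hosts, 1 higher and 1 lower by edgeR, were 7 with no filter (6 higher, 1 lower) and 4 with DESeq2 (2 higher, 2 lower). The higher call was lost, leaving 0 higher and 1 lower, with DESeq2 size factors, with antisense circRNAs added, and without SCI replicate 1 or sham replicate 2. There were 0 calls without SCI replicate 3 (32 at an unadjusted p under 0.05) or sham replicate 1 (100), and 8 (5 higher, 3 lower) without sham replicate 3. Called circRNAs, 1 by edgeR and lower in SCI, were 2 with library totals, a minimum count of 10, DESeq2 or limma-voom, both lower each time. There were 0 with no filter (236 unadjusted), and 0 to 3 with 1 library left out. Of these, there were 0 without sham replicate 1 (69 unadjusted) and 3 without sham replicate 3 (1 higher, 2 lower). With the replicate block there was 1 host, lower, and 2 circRNAs, both lower. In the labels the replicate numbers only name samples. Deviations of same-numbered libraries correlated at -0.01, 0.06 and 0.03, but at such low counts these correlations could miss a pairing. The 3 gene lists described had 0 called hosts in each alternative, DESeq2 and limma-voom among them, but with 0 to 5 hosts tested under the count filters this says nothing about stability. No filter moved the median log2 fold change of the 647 hosts by 0.34. Depth limits single junctions, since a count of 0 allows up to 3 reads.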

Other observations

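Summed, the other circRNAs near each gene had reads in both groups, but most of those near Myo19 had none in sham. Within 500 kb of the Myo19 junctions the table holds 17 circRNAs of other hosts, with 63 reads in SCI, against 35 in sham, and 6 of them had sham reads. The rest were counted in SCI alone, beside 49.2% of all circRNAs in the table. Usp32, a ubiquitin protease gene that lies after Myo19 and Car4 in the RefSeq gene order of GRCr8, had 12 circRNAs with 13, 16 and 20 reads in SCI, against 11, 17 and 3 in sham. One of them (chromosome 10, 72296244 to 72303736, minus strand) had 4, 6 and 2 reads in SCI, against 0 in each sham library, while one with the same start (72296244 to 72323733) had 2, 3 and 1 against 7, 5 and 0. Further Usp32 circRNAs had 4, 2 and 0 reads in SCI, against 3, 6 and 2 in sham (72275753 to 72278512), and 0, 2 and 3 against 0, 3 and 1 (72236401 to 72243184). Ggnbp2, on the other side of Myo19, had 8, 3 and 1 reads in SCI, against 0, 4 and 0 in sham over 4 circRNAs.

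Within 500 kb of the Myo9a junctions there were 10 other circRNAs, with 53 reads in SCI, against 53 in sham, and 8 of them had sham reads. The rest were counted in SCI alone, beside 49.2% of all circRNAs in the table. The most-read of the 10 was one of Arih1, a ubiquitin ligase gene (chromosome 8, 63967336 to 63995032, minus strand), with 6, 4 and 2 reads in SCI, against 4, 5 and 18 in sham. Its highest count was in sham replicate 3, where Myo9a had its lowest. A circRNA of Bbs4, a gene of the ciliary trafficking complex (63901239 to 63907373), had 6, 7 and 4 reads in SCI, against 5, 2 and 0 in sham.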
